A study of Mus musculus with 10 samples.

Results

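Glucocorticoids are steroid hormones that the adrenal gland releases with the daily rhythm and during stress, and corticosterone is the main one in mice. In the brain the hormone enters the cell, binds the glucocorticoid receptor NR3C1, which an HSP90 chaperone complex holds in the cytoplasm, and the loaded receptor moves to the nucleus and binds glucocorticoid response elements in DNA. A recurrent set of genes rises in neurons, glia and vessels when this happens, and several of them act as brakes on the same pathway.

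The group described here holds 10 of the 55536 mouse genes in the count tables. They are the receptor gene Nr3c1 and the responsive genes Fkbp5, Sgk1, Tsc22d3, Nfkbia, Sult1a1, Hif3a, Zbtb16, Map3k6 and Cdkn1a. They were chosen by name, with the KO-against-control differences of these same libraries already known. The KO differences of the members are therefore given as a description, without a test, and support nothing by themselves. All 10 passed the filter on low counts in each comparison, and their read counts in single libraries ran from 42 (Map3k6) to 4016 (Sgk1).

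Bulk RNA came from 5 mice aged 1 year, and each mouse gave a cerebellum library and a cerebral cortex library. The Snx14-KO mice (KO 1 and KO 2) carry 1 edited frameshift allele on both copies of Snx14 in the whole body, in a line backcrossed to C57BL/6J. Snx14 encodes a sorting nexin of the endoplasmic reticulum. The controls were 2 mice labelled Het (controls 1 and 2) and 1 labelled WT (control 3), which the labels name together as controls. With 3 controls and 2 KO mice per tissue, 1 animal weighs heavily on every value below.

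Library totals lay between 16088310 and 22975355 gene counts. Levels are CPM, the counts of a gene divided by the library total and rescaled to a common size, with TMM factors over all 10 libraries. Snx14 stood at 39.9 to 73.2 CPM in control cerebella and 15.5 and 17.4 CPM in KO cerebella, and at 34.3 to 50.8 CPM and 14.8 and 16.1 CPM in the cortices. By Xist and the Y-linked Ddx3y, Eif2s3y, Kdm5d and Uty, the males were control 2 and KO 2. The summed CPM of 6 granule cell markers was 3578 to 4258 in cerebella and 86.9 to 108 in cortices, and that of 6 cortical neuron markers was 485 to 599.8 in cerebella and 1383 to 1851 in cortices. The tissue is bulk RNA, so more cells of a type and more RNA per cell cannot be told apart.

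A glucocorticoid response element is an inverted repeat of AGAACA around a 3-base gap. It was searched in the RefSeq windows that run from 250 bases before to 50 bases after each transcript start (build GRCm38.p6), of which 16 belong to 8 of the 10 members. The exact palindrome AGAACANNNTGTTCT, read on both strands, stood in 3 of 32851 windows (0.00913%), and 1 of these was a Sgk1 start. The others belong to Acnat2 and Gm35041. The looser pattern GNACANNNTGTNC, which every exact palindrome also matches, stood in 156 windows (0.475%), and among the members in that Sgk1 window and the Map3k6 window. The 250 bases upstream of these starts are shown because they are the only member windows with a match, with the matched bases in capitals.

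Sgk1, chr10:21993640-21993889, plus strand: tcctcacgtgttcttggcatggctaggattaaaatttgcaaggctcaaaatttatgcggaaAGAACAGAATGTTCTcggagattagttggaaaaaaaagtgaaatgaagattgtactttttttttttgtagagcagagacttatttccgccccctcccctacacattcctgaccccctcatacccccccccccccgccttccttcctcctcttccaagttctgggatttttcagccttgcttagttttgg
Map3k6, chr4:133240568-133240817, plus strand: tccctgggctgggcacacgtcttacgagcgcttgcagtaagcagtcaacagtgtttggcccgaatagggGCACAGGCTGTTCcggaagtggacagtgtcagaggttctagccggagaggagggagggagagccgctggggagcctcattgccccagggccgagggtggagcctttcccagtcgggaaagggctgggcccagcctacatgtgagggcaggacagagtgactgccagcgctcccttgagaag

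The Sgk1 palindrome lay 189 to 175 bases before the start at chr10:21993890, which is 1 of several annotated Sgk1 starts. The Map3k6 match lay 181 to 169 bases before the Map3k6 start. A match is a string of letters and was not tested as a binding site, and elements outside these windows were not searched.

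Nr3c1, the receptor itself, had nearly the same level in every library. Cerebellar values were 127, 127 and 121 CPM in controls 1 to 3 and 124 and 125 CPM in KO 1 and KO 2. Its cortical values were 121, 130.1 and 121 CPM in controls and 114 and 138 CPM in KO mice. The groups overlapped in both tissues, and the fitted KO differences on the log2 scale were -0.02 (SE 0.0581) in cerebellum and 0.04 (SE 0.105) in cortex. Per kilobase of exon its control level was 16.3 CPM in cerebellum and 16.1 CPM in cortex.

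Around this flat receptor, the other 9 members showed 2 patterns. Sgk1, Tsc22d3, Nfkbia and Sult1a1 were higher in both KO mice than in all 3 controls, in cerebellum and again in cortex. Fkbp5, Hif3a, Zbtb16, Map3k6 and Cdkn1a varied so widely among the controls that the groups overlapped in both tissues. KO libraries lay above all controls for 15.4% of the genes tested in cerebellum, 10.5% in cortex and 2.39% in both tissues together. These shares are the background for the 4 of 10 members.

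**Figure D1:**
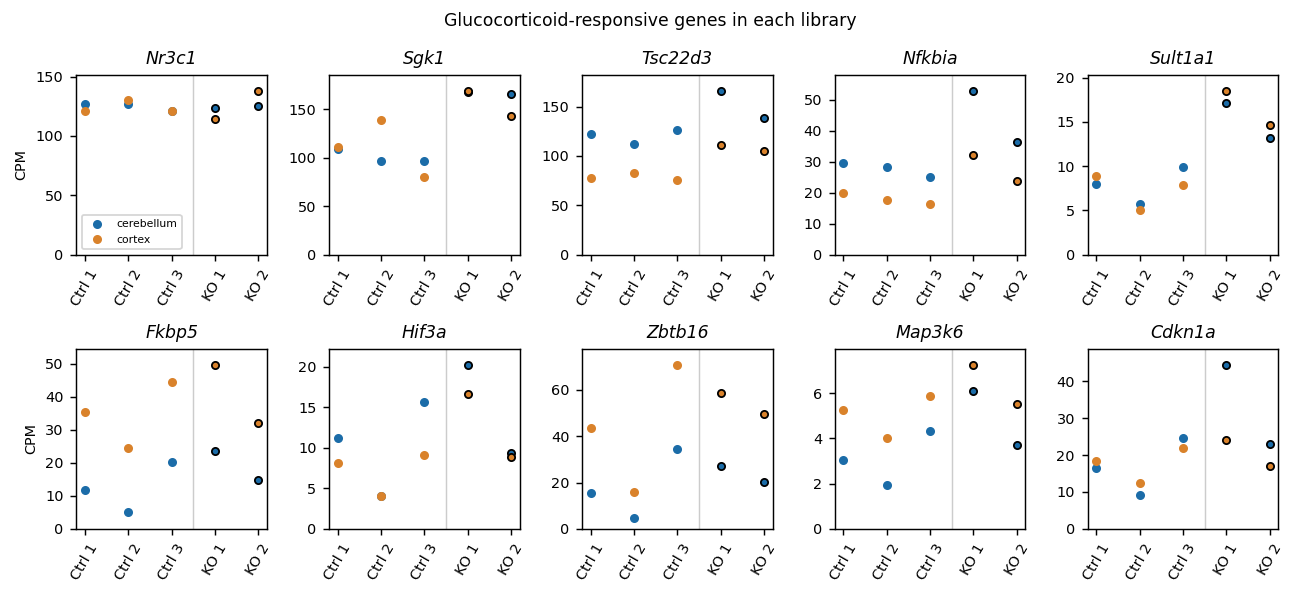
CPM (vertical axes, starting at 0) of each member in the 5 animals (horizontal axes, 3 controls left of the grey line and 2 KO mice right of it, outlined in black), cerebellum in blue and cortex in orange. In the upper row Nr3c1 is level, while Sgk1, Tsc22d3, Nfkbia and Sult1a1 are above all controls in both KO mice, and in the lower row control 2 has the lowest value in every panel.

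Sgk1 (ENSMUSG00000019970.15, chr10:21882184-21999903) encodes the serum- and glucocorticoid-regulated kinase, which phosphorylates ion channels, transporters and FOXO factors. Control cerebella had 109, 96.3 and 96.4 CPM of Sgk1, and KO cerebella 168 and 166 CPM. The controls differed by a factor of 1.13 and the KO mice were 1.66 times their mean, a log2 difference of 0.72 (SE 0.0701). Control cortices had 111, 139 and 80.6 CPM, and KO cortices 169 and 143 CPM. There the groups were separated by a small step between control 2 and KO 2, and the log2 difference was 0.52 (SE 0.207), or 0.33 without control 3.

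Tsc22d3 (ENSMUSG00000031431.13, chrX:140539528-140600659) encodes GILZ, a leucine zipper protein that restrains NF-kappaB and AP-1. It had the highest level per kilobase in control cerebellum among the 10 members, 27.6 CPM per kilobase against 18.2 in cortex. Control cerebella were at 122, 112 and 126 CPM and KO cerebella at 166 and 139 CPM, a log2 difference of 0.34 (SE 0.0869). Control cortices were at 77.5, 83.1 and 76 CPM and KO cortices at 111 and 105 CPM, a log2 difference of 0.47 (SE 0.0873). The difference was small in both tissues and stood beside a narrow spread, since the cortex controls differed by a factor of 1.09.

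Nfkbia (ENSMUSG00000021025.8, chr12:55489410-55492647) encodes IkappaB-alpha, the inhibitor that retains NF-kappaB in the cytoplasm and that both NF-kappaB and glucocorticoids induce. Cerebella had 29.4, 28.3 and 25 CPM in controls against 52.8 and 36.3 CPM in KO mice, a log2 difference of 0.68 (SE 0.15). Cortices had 19.9, 17.5 and 16.4 CPM in controls against 32.1 and 23.7 CPM in KO mice, a log2 difference of 0.65 (SE 0.166). KO 1 was 1.46 times KO 2 in cerebellum and 1.36 times in cortex, so the KO mice differed more from each other than the controls did, and without KO 1 the differences were 0.39 and 0.41.

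Sult1a1 (ENSMUSG00000030711.16, chr7:126672865-126676432) encodes a sulfotransferase of phenols and catecholamines, and the gene shares 4.05% of its exonic sequence with Sgf29. Its level was low, 5.20 CPM per kilobase in control cerebellum and 4.81 in control cortex. Cerebella had 7.98, 5.69 and 9.86 CPM in controls and 17.1 and 13.2 CPM in KO mice. Cortices had 8.86, 5.01 and 7.85 CPM in controls and 18.5 and 14.6 CPM in KO mice. KO means were 1.93 times the control mean in cerebellum and 2.29 times in cortex, with log2 differences of 0.94 (SE 0.223) and 1.22 (SE 0.244).

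Fkbp5 (ENSMUSG00000024222.17, chr17:28399094-28517527) encodes a cochaperone of HSP90 that lowers the receptor's affinity for hormone, and its induction closes a feedback loop. Control cerebella were at 11.8, 5.13 and 20.3 CPM and KO cerebella at 23.6 and 14.7 CPM. Control cortices were at 35.3, 24.5 and 44.6 CPM and KO cortices at 49.6 and 32.2 CPM. The controls alone spanned a factor of 3.96 in cerebellum and 1.82 in cortex, wider than the ratio of the KO to the control mean (1.54 and 1.17). KO 2 lay below control 3 in both tissues, and the log2 differences of 0.62 (SE 0.449) and 0.25 (SE 0.262) were little larger than their errors or smaller, and without KO 1 they were 0.25 and -0.10.

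Zbtb16 (ENSMUSG00000066687.5, chr9:48654297-48836222), which encodes the zinc finger repressor PLZF, had the widest spread of the 10. It was at 15.5, 4.53 and 34.7 CPM in control cerebella and at 27 and 20.2 CPM in KO cerebella. In cortex it was at 43.5, 16 and 70.7 CPM in controls and at 58.8 and 49.7 CPM in KO mice. The controls spanned a factor of 7.66 in cerebellum and 4.42 in cortex, and control 3, the WT mouse, was the highest animal in both tissues. The log2 differences were 0.37 (SE 0.602) and 0.34 (SE 0.480), and without control 2 they were -0.10 and -0.05.

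Hif3a (ENSMUSG00000004328.15, chr7:17031507-17062427) encodes an alpha subunit of the hypoxia-inducible factor family, some forms of which oppose the other subunits. It was at 11.2, 4.02 and 15.6 CPM in control cerebella and 20.2 and 9.31 CPM in KO cerebella, and at 8.14, 4.05 and 9.14 CPM in control cortices and 16.6 and 8.93 CPM in KO cortices. KO 1 was 2.17 times KO 2 in cerebellum and 1.86 times in cortex, and KO 2 lay inside the control range in both. The log2 differences were 0.51 (SE 0.487) and 0.87 (SE 0.369), and without KO 1 they were -0.13 and 0.34.

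Map3k6 (ENSMUSG00000028862.6, chr4:133240818-133252929), a stress-activated kinase upstream of JNK and p38, was the least abundant member at 0.673 CPM per kilobase in control cerebellum. Its controls were at 3.03, 1.94 and 4.32 CPM in cerebellum and 5.27, 4 and 5.89 CPM in cortex. The KO mice were at 6.09 and 3.72 CPM in cerebellum and at 7.23 and 5.52 CPM in cortex. KO 1 was the highest animal and control 2 the lowest in both tissues, with log2 differences of 0.65 (SE 0.337) and 0.36 (SE 0.225) that were 0.27 and 0.14 without KO 1.

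Cdkn1a (ENSMUSG00000023067.14, chr17:29090976-29100727) encodes the cell cycle inhibitor p21, which both p53 and the glucocorticoid receptor induce, and the gene shares 7.68% of its exonic sequence with AC167363.2. Cerebella had 16.5, 9.25 and 24.5 CPM in controls and 44.3 and 22.9 CPM in KO mice, so KO 1 stood apart from the other 4 animals and KO 2 was below control 3. Cortices had 18.3, 12.4 and 21.8 CPM in controls and 24 and 17.1 CPM in KO mice, with KO 2 again inside the control range. The log2 differences were 0.99 (SE 0.372) in cerebellum and 0.25 (SE 0.249) in cortex, and without KO 1 they were 0.45 and -0.03. Of 12 other p53 targets, 12 were tested in cerebellum and 11 in cortex, and edgeR and DESeq2 called 0 in either tissue, with 0 in cerebellum and 2 in cortex at an unadjusted p under 0.05, and their median log2 differences were 0.16 and 0.10.

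**Figure D2:**
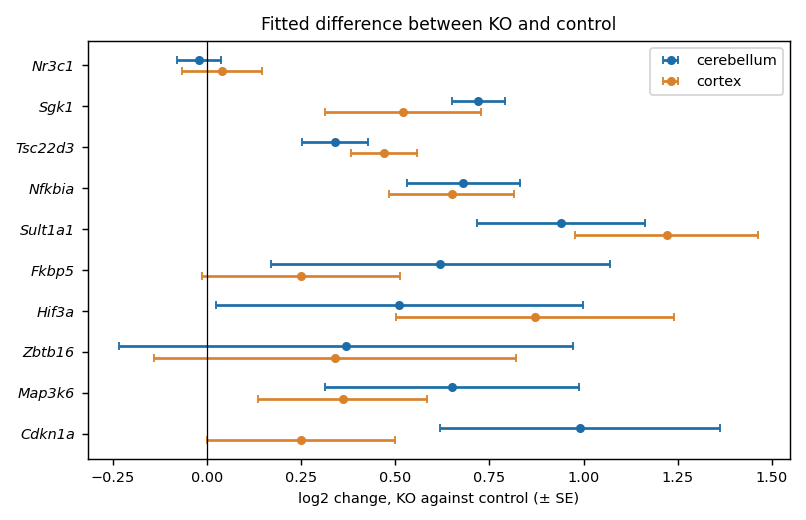
Fitted log2 difference of KO against control (horizontal axis) for each member (vertical axis), with its standard error as bars, cerebellum in blue and cortex in orange. Nr3c1 lies at 0, and the bars are short for Sgk1 and Tsc22d3 in cerebellum and long for Zbtb16, Hif3a and Fkbp5.

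Across the members the median log2 difference was 0.63 in cerebellum, with 9 of 10 above 0, and 0.41 in cortex, with 10 of 10 above 0. Over all tested genes the medians were 0.000899 and 0.00122. Single animals moved these values. The cerebellum median was 0.26 without KO 1, 0.34 without control 2 and 0.95 without control 3, and the cortex median was 0.27 without KO 1. The calls that follow come from the values by which the members were chosen, and nothing is read from them. In the fit over all genes edgeR called 1 of the 10 members in cerebellum, Sgk1, against 1.55% of all genes (0.514% higher and 1.04% lower), and 0 in cortex, where it called 0% of all genes. In each tissue 5 members had an unadjusted p under 0.05, as had 13.4% of all genes in cerebellum and 5.93% in cortex. DESeq2 called 3 members in cerebellum (Nfkbia, Sgk1 and Sult1a1) and 1 in cortex (Sult1a1), against 2.67% and 0.244% of the genes it tested. Without control 2, edgeR called Sgk1, Sult1a1 and Tsc22d3 in cortex (0.517% of all genes), and without KO 2 it called Nfkbia besides Sgk1 in cerebellum (1.33%). When the KO difference in cerebellum was set against that in cortex, edgeR and DESeq2 called 0 members. EdgeR called 0.102% of all genes (0.0243% higher and 0.0776% lower), and 0 members had an unadjusted p under 0.05. That fit had no animal term, so the libraries of a mouse were taken as independent. With the animal as a block edgeR called 0 members, against 0.621% of all genes.

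Since each mouse gave both tissues, the order of the animals could be compared between them. The animal with the highest level was the same in cerebellum and cortex for 9 of 10 members, and the animal with the lowest level for 7 of 10. Over all genes tested in both tissues these shares were 29.6% and 28.2%. The members were chosen with the KO differences of both tissues already known, so these counts are a description and support nothing by themselves. KO 1 was the highest animal in both tissues for 8 members and control 3 for Zbtb16, while Nr3c1 had no shared order. Control 2 was the lowest animal in both tissues for Fkbp5, Sult1a1, Hif3a, Zbtb16, Map3k6 and Cdkn1a, and control 3 for Nfkbia. For Sgk1 and Tsc22d3 the lowest animal was control 2 in cerebellum and control 3 in cortex.

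Averaged over the members, log2 CPM relative to the mean of the 5 animals was -0.15 in control 1, -0.78 in control 2, 0.17 in control 3, 0.63 in KO 1 and 0.14 in KO 2 for the cerebellum. In cortex it was -0.08, -0.50 and -0.01 among controls, 0.46 in KO 1 and 0.13 in KO 2. On this average KO 2 lay just below control 3 in cerebellum and above it in cortex. The spread between control 2 and control 3 exceeded the step from the controls to KO 2 in both tissues.

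**Figure D3:**
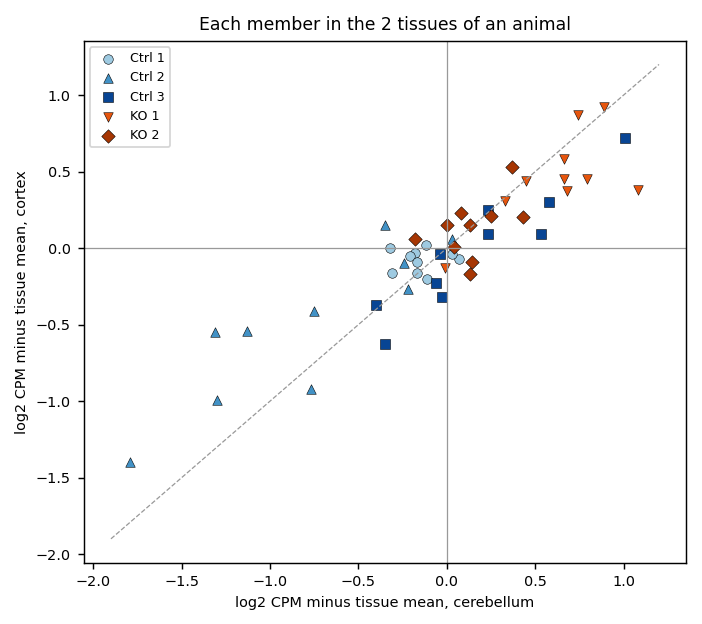
Log2 CPM of each member in each animal minus the mean of the 5 animals, cerebellum on the horizontal and cortex on the vertical axis, with 1 symbol per animal and the line of equal values dashed. Control 2 (triangles) reaches -1.79 in cerebellum and -1.40 in cortex for Zbtb16, and most points of KO 1 (inverted triangles) lie at the upper right.

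Control 2 and KO 2 were the males. In both tissues control 2 was below the other controls and KO 2 below KO 1 for 6 of the 10 members (Cdkn1a, Fkbp5, Hif3a, Map3k6, Sult1a1 and Zbtb16), and the same held for 6.53% of all genes tested in both tissues. With 1 male in each class, sex and the single animal cannot be told apart. With sex as a term in the fit, a comparison added after the values were seen, the median log2 difference of the members was 0.81 in cerebellum and 0.49 in cortex, and edgeR called Cdkn1a, Sgk1 and Sult1a1 in cerebellum (1.64% of all genes) and 0 members in cortex (0.0156%).

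The levels of the members in the 2 brain regions were not used to choose them and were tested between the cerebellum and cortex of the 3 controls. EdgeR called 3 of 10 members, against 40.5% of all genes tested. Fkbp5 was lower in cerebellum by a log2 difference of -1.49 (SE 0.416, adjusted p 0.0149). Tsc22d3 was higher by 0.60 (SE 0.079, adjusted p 0.000256) and Nfkbia by 0.62 (SE 0.111, adjusted p 0.00159). The call of Fkbp5 rested on control 1, without which its adjusted p was 0.115 (difference -1.45).

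The libraries of a mouse are paired, and with the animal as a block edgeR called 5 members, adding Zbtb16 (-1.39, adjusted p 1.12e-05) and Map3k6 (-0.75, adjusted p 0.00936) on the low side, against 42.1% of all genes. Without control 2 it called 6, against 42.7% of all genes, with Hif3a higher in cerebellum (0.60, adjusted p 0.00641) besides these 5. Nr3c1, Sgk1, Sult1a1 and Cdkn1a were not called in any of the fits. The difference of Nr3c1 was 0.01 (SE 0.070) on the log2 scale and that of Sgk1 -0.14 (SE 0.171).

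The KO mice, which took no part in that test, had the same signs for these 5 genes. Fkbp5 was lower in the cerebellum of 5 of 5 animals, with log2 ratios from -2.26 in control 2 to -1.07 in KO 1. Zbtb16 was lower in 5 of 5 (-1.82 to -1.03), as was Map3k6 (-1.04 to -0.25). Tsc22d3 was higher in cerebellum in 5 of 5 animals, with ratios from 0.41 to 0.73, and Nfkbia in 5 of 5, with ratios from 0.56 to 0.72. Nfkbia kept this ratio within an SD of 0.0649 (n = 5), although its level in KO 1 was 1.46 times that in KO 2. For Cdkn1a the ratio was -0.15, -0.42 and 0.17 in the controls and 0.89 and 0.42 in the KO mice, above all controls in both.

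**Figure D4:**
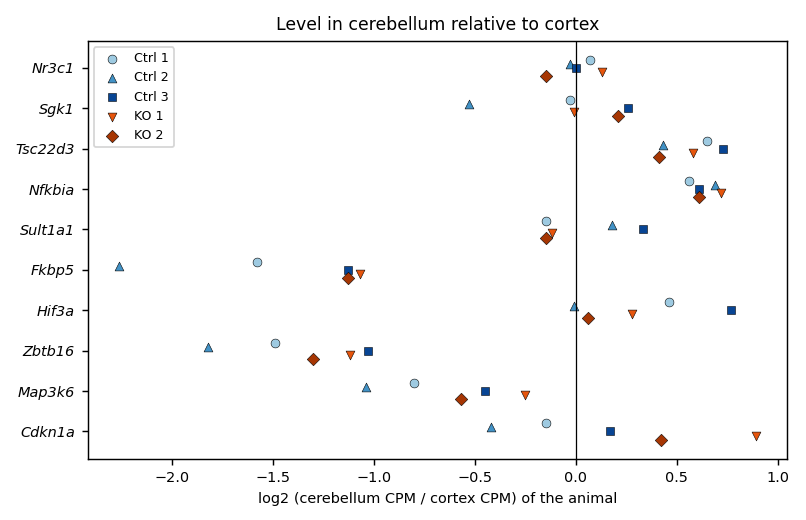
Log2 ratio of the CPM in cerebellum to that in cortex of the same animal (horizontal axis) for each member (vertical axis), with 1 symbol per animal. Fkbp5, Zbtb16 and Map3k6 lie below 0 and Tsc22d3 and Nfkbia above 0 in all 5 animals.

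A list of 24 further genes that glucocorticoids are known to induce was read from the same fits. They were chosen with earlier results of these data known, among them those of Plin4, Mfsd2a and Txnip. Their values are therefore a description and cannot show whether the differences extend to the pathway. In cerebellum edgeR called 7 of 24 higher and 0 lower, against 0.514% of all genes called higher, and 22 of 24 fitted differences were above 0, with a median of 0.50. KO libraries lay above all controls for 19 of the 24, against 15.4% of all genes. DESeq2 also called 7, of which Glul, Mfsd2a, Mt1, Mt2 and Txnip were shared with edgeR and Arrdc2 and Per1 were not, and it did not call Lcn2 or Plin4. EdgeR called 2 without control 1 (Glul and Lcn2), 4 without control 3 (Glul, Mt1, Mt2 and Plin4) and 3 without KO 1 (Glul, Mt1 and Txnip).

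Glul, the glutamine synthetase of astrocytes, was at 945, 896 and 1028 CPM in control cerebella and at 1647 and 1628 CPM in KO cerebella, a rise of 0.77 on the log2 scale (SE 0.0926, adjusted p 0.00526), and it was called in every fit that left out 1 library. Mt1, a zinc-binding metallothionein, rose by 0.96 (SE 0.140, adjusted p 0.0114), from 283, 239 and 299 CPM to 623 and 452 CPM. Mt2 rose by 0.97 (adjusted p 0.0135), but shares 73.5% of its exonic sequence with Gm45774. The remaining calls, picked out once their values were known, were Mfsd2a, the lysophospholipid transporter of the blood-brain barrier (1.24), Txnip, an inhibitor of thioredoxin (0.90), Lcn2, an iron-siderophore carrier of the acute phase (2.53), and Plin4, a lipid droplet coat protein (2.24), with adjusted p-values of 0.0142, 0.0211, 0.0306 and 0.0455. Lcn2 was near the detection limit in controls, at 0.607, 0.185 and 0.254 CPM, and at 2.47 and 1.70 CPM in KO cerebella.

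In cortex 23 of the 24 genes were tested, and edgeR and DESeq2 called 0, with 11 at an unadjusted p under 0.05, against 5.93% of all genes in the edgeR fit. The fitted differences were above 0 for 22 of 23, with a median of 0.39, and KO libraries lay above all controls for 13, against 10.5% of all genes. Plin4 was at 7.73, 2.58 and 15.3 CPM in control cortices and at 37.5 and 22.6 CPM in KO cortices, a log2 difference of 1.85 (SE 0.562, adjusted p 0.760). Mfsd2a was at 14.6, 8.05 and 16 CPM and at 28.7 and 23 CPM, a difference of 1.03 (SE 0.269, adjusted p 0.754). Klf15, a transcription factor induced by the receptor, was at 20.7, 20.4 and 21 CPM and at 31.7 and 26.1 CPM (0.50, SE 0.126, adjusted p 0.754). Plin4, Mfsd2a and Klf15 were picked out here after their values were seen. The smallest unadjusted edgeR p of the list in cortex was that of Mt2 (0.48, p 0.000373). Cebpb, the 1 gene below 0, was at 9.64, 6.58 and 6.01 CPM in control cortices and at 5.8 and 3.79 CPM in KO cortices (-0.60, SE 0.279). Without control 2 edgeR called 4 genes of the list in cortex (Ddit4, Mfsd2a, Per1 and Plin4). Without KO 1 the medians of the list were 0.34 in cerebellum and 0.25 in cortex.

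**Figure D5:**
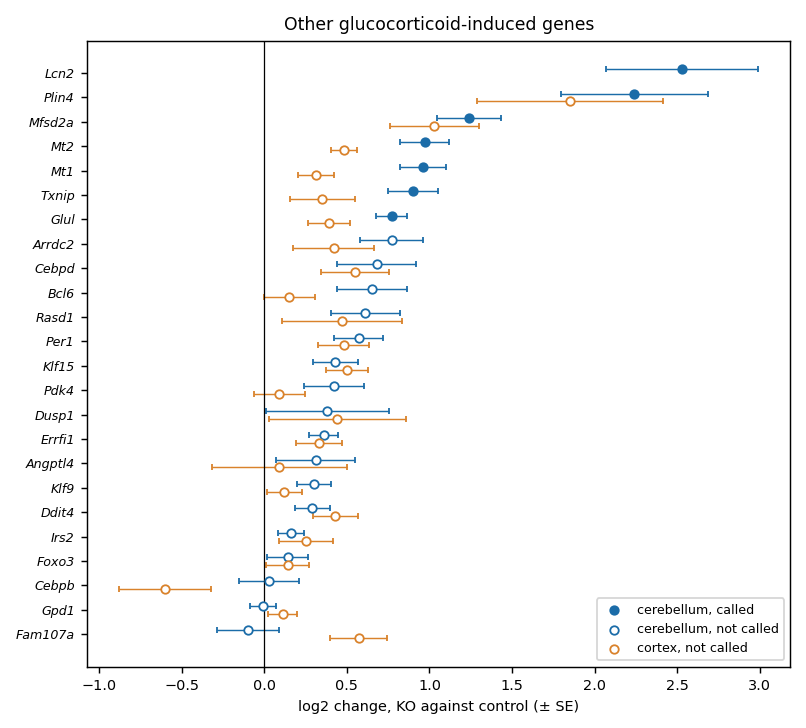
Fitted log2 difference of KO against control (horizontal axis, bars are standard errors) for 24 other glucocorticoid-induced genes in cerebellum (blue) and 23 in cortex (orange), with filled symbols for genes called. The 7 called genes are all from cerebellum, and 22 points of each tissue lie above 0.

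Other lists around the pathway held 0 called genes. Of 10 genes for hormone handling and receptor chaperones (Nr3c2, Fkbp4, Hsp90aa1, Hsp90ab1 and others) 9 were tested, and edgeR and DESeq2 called 0 in each tissue, with 0 at an unadjusted p under 0.05 and medians of 0.06 and -0.13. In cortex 5 of the 9 were below all controls in both KO mice, against 14.2% of all genes. Of 10 genes that glucocorticoids repress, 5 were tested, and edgeR and DESeq2 called 0, with 3 at an unadjusted p under 0.05 in cerebellum and 1 in cortex. The medians were 0.67 and 0.15, with 5 of 5 fitted differences above 0 in cerebellum and 4 of 5 in cortex. The NF-kappaB feedback list, relevant for Nfkbia, had 0 calls with edgeR or DESeq2, 0 at an unadjusted p under 0.05 and medians of 0.07 and 0.15. The hypoxia list, relevant for Hif3a, also had 0 calls with either tool, with 4 and 1 at an unadjusted p under 0.05 and medians of 0.01 and -0.04. Immediate early genes, which neuronal activity and handling induce, had 0 calls with either tool and 0 at an unadjusted p under 0.05, with medians of 0.15 and 0.32. Their summed level was highest in control 2 in both tissues (247 CPM in cerebellum and 1029 in cortex) and lowest in control 3 (91.7 and 417).

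Levels of cell type markers are given beside these genes, and which cells express the members was not tested. The summed CPM of 8 astrocyte markers was 5534 to 5992 in control cerebella and 6293 and 6579 in KO cerebella, and 3677 to 4918 and 5223 and 5513 in the cortices. Of these, edgeR called Gfap, Gja1 and Aqp4 higher in cerebellum (1.30, 0.78 and 0.69, adjusted p 0.000444, 0.00269 and 0.00866) and 0 of 8 in cortex, where 3 had an unadjusted p under 0.05 and DESeq2 called 0. In cerebellum 2 of the 8 fitted differences were below 0. Slc1a3 was at 1486, 1287 and 1483 CPM in control cerebella and at 1103 and 1014 CPM in KO cerebella. Its log2 difference was -0.43 (edgeR adjusted p 0.0843, not called). The summed CPM of the 8 astrocyte markers was lowest in control 2 in both tissues. The sum of 9 endothelial markers was 139.8 to 158 CPM in control cerebella and 162 and 165 in KO cerebella, and 81.1 to 176 and 165 and 184 in the cortices, where the groups overlapped. That of 8 microglia markers was 184 to 207 and 265 and 274 CPM in cerebella, with C1qa and C1qb called, and 410.2 to 470.3 and 421 and 452 CPM in cortices.

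The 8 Purkinje cell markers summed to 8658 to 10341 CPM in control cerebella and 4359.7 and 4491 CPM in KO cerebella, and all 8 were called lower. Oligodendrocyte markers summed to 4484 to 6735 CPM and 5969 and 7650.2 CPM in cerebella, and to 4867 to 8987 CPM (control 2 highest) and 5278 and 5324 CPM in cortices. Fibroblast markers summed to 111 to 276 and 222 and 336 CPM in cerebella and to 69.5 to 147 and 129 and 156 CPM in cortices, with control 2 lowest in both. Choroid plexus markers summed to 1209 to 3435 CPM in control cerebella, 66.6 CPM in KO 1 and 2949.8 CPM in KO 2. Blood markers stayed at 17.8 CPM or less in every library. No marker was at 0 in all libraries of a tissue, and the part of these cell types in the differences of the glucocorticoid-responsive genes was not tested.

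The genes whose profile over the 10 libraries, centred within each tissue, was most like the mean profile of the 10 members were ranked by Pearson's r among 16129 other genes. The 10 libraries come from 5 animals, and r is given as a description. The closest were Hmbox1 (r = 0.982), a homeobox telomere-binding protein, Efna5 (0.975), an ephrin ligand, Dzip1l (0.957), Fbxl20 (0.957), Brf1 (0.954), Ppp1r3g (0.953), a glycogen-targeting subunit of protein phosphatase 1, Paqr8 (0.949), a membrane progestin receptor, Abca1 (0.945), the cholesterol exporter, Nectin2 (0.944) and AC174800.1 (0.940). Paqr8 was at 319, 265 and 375 CPM in control cerebella and 435 and 373 CPM in KO cerebella, and at 170.5, 119 and 161 CPM and 206 and 190.4 CPM in the cortices. Abca1 was at 71.5, 57.3 and 82.4 CPM and 101 and 81.5 CPM in cerebella, and at 39.5, 29.1 and 45.1 CPM and 48.7 and 38.9 CPM in cortices. In both genes control 2 was the lowest animal and KO 1 the highest in each tissue. The mean of the members, by which these genes were ranked, has the same lowest and highest animal. The order therefore follows from the ranking and supports nothing. Of 23 other glucocorticoid-induced genes compared, 0 were among these 10, and the nearest were Plin4 (r = 0.93, place 19) and Klf15 (r = 0.93, place 23). Mfsd2a (r = 0.89, place 52) and Mt2 (r = 0.85, place 122) followed. The furthest were Cebpb (r = -0.07, place 8674) and Dusp1 (r = -0.12, place 9150). Among the members themselves, whose values enter the mean, r was highest for Map3k6 (0.98) and lowest for Sgk1 (0.52) and Nr3c1 (-0.38).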

How the data were processed

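The deposited tables, 1 for each library, hold raw gene counts of read pairs. Per the file headers and the methods, the authors used STAR to align trimmed pairs to GRCm38 and counted those in exons with featureCounts 2.0.1, without strand although the libraries were strand-specific. Pairs with several alignments were not counted, and a pair over several genes counted for each, so overlapping genes can share reads. The deposited exonic length per gene gave CPM per kilobase. The 26345 entries without a mouse gene identifier (0.160% to 0.926% of counts) were left out, and symbols came from GENCODE M21, whose coordinates matched for 55536 genes.

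KO and control were compared per tissue with edgeR 4.0.16 (R 4.3.3) quasi-likelihood F tests, filterByExpr (minimum count 10) and TMM factors, with genotype class as the only term. The main fits of the tissues in controls and of the difference of KO effects had no animal term. Calls needed an adjusted p (Benjamini-Hochberg, over all genes) under 0.05 and an absolute log2 difference over 0.5, or by adjusted p alone for the difference between tissues. SE is the log2 difference divided by the root of F. CPM printed use TMM over 10 libraries, which differs from the scale within a tissue by a common factor and at most 1.07% besides. Deviations used log2(CPM + 0.5). The fits were tested on simulated counts.

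Alternatives were DESeq2 1.42.0, its size factors, no filter, a block, and leaving out each library. The block was the replicate number in the KO comparisons and the animal in the fits across tissues. A sex term and the medians were added after the values were seen. The members and all lists were chosen with earlier results of these data known. Named genes were the members, Snx14, the 10 genes most like the mean member profile at a mean of at least 1 CPM in each tissue, and up to 3 called genes per list with the smallest adjusted p. Same-numbered control and KO mice share only a number, with correlations of their deviations of -0.0411 to 0.162. The labels give 1 animal number to the tissues of a mouse, and those deviations correlated with r of 0.246 to 0.486. Within a tissue, each library is a separate mouse.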

Additional observations from a re-analysis of the deposited data

How the results depend on the processing

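When low counts were kept, edgeR called 5 members in cerebellum (2.39% of all genes) and 4 in cortex (1.09%). It called 5 between the tissues of controls (25.3%) and 1, Cdkn1a, for the difference of KO effects (1.56%). Of the other induced genes it called 10 in cerebellum and 3 in cortex. In the KO comparisons those fits estimated infinite prior degrees of freedom (5.41 and 4.64 after filtering), so their p-values are doubtful. DESeq2 called 3 members in cerebellum (2.67% of all genes) and 1 in cortex (0.244%). The replicate block called 4 members in cerebellum (0.931% of all genes), namely Cdkn1a, Fkbp5, Sgk1 and Sult1a1. It called 0 in cortex (0.0156%). With the animal as the block, edgeR called 5 members between tissues (42.1%) and 0 for the difference of KO effects (0.621%). Of the other induced genes the replicate block called 5 in cerebellum (without Lcn2 and Txnip) and 1 in cortex (Plin4). A sex term called 3 members in cerebellum (1.64%). DESeq2 size factors changed no count of called members or other induced genes, but gave Nr3c1 a tissue difference of -0.01, as did DESeq2. Leaving out 1 control at a time called 1 member in cerebellum (0.693% to 2.08% of all genes) and 0 to 3 in cortex (0% to 0.517%). Between tissues it called 2 to 6 members (32.6% to 42.7%). Of the other induced genes it called 2 to 8 in cerebellum and 0 to 4 in cortex. Leaving out any 1 library gave medians of the other induced genes of 0.34 to 0.53 and 0.25 to 0.41. The signs of single genes with small differences also turned when 1 library was left out. In cerebellum the KO difference of Hif3a ran from -0.13 to 0.97 and that of Zbtb16 from -0.10 to 1.23. In cortex Fkbp5 ran from -0.10 to 0.53, Zbtb16 from -0.05 to 0.88, Cdkn1a from -0.03 to 0.48 and Nr3c1 from -0.10 to 0.16. Between the tissues of controls Sgk1 ran from -0.28 to 0.07, Sult1a1 from -0.02 to 0.27, Cdkn1a from -0.25 to 0.00 and Nr3c1 from -0.02 to 0.02. For the difference of KO effects Tsc22d3 ran from -0.24 to 0.02, Hif3a from -1.0 to 0.18, Zbtb16 from -0.52 to 0.91, Map3k6 from -0.07 to 0.64, Nr3c1 from -0.17 to 0.11, Nfkbia from -0.25 to 0.30 and Snx14 from -0.51 to 0.05. The cause of these changes was not tested. In the KO comparisons the block was the replicate number. There same-numbered control and KO mice are different animals, and with 2 shared numbers per tissue the block leaves few residual degrees of freedom. In the fits across tissues the block was the animal, whose libraries are paired.

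With 3 controls and 2 KO mice, values of 1 animal set much of the spread. Over all genes, the cerebellum comparison called 302 genes, 133 without control 1 and 842 without the filter. The difference of KO effects called 21 genes, 128 with the animal as the block and 221 with DESeq2.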

Other observations

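Pomc, the precursor of corticotropin and one of the 10 genes that glucocorticoids repress, was picked out after its values were seen. Control cerebella had 2.33, 1.48 and 0.915 CPM, against 16.2 CPM in KO 1 and 2.36 CPM in KO 2. In cortex controls had 2.22, 2.33 and 1.6 CPM, KO 1 had 20.2 CPM and KO 2 had 1.09 CPM. The high value thus belonged to 1 animal in both tissues, KO 1. A link between Pomc and the glucocorticoid-responsive genes was not tested. The log2 differences of 2.52 (SE 0.688, edgeR adjusted p 0.135) in cerebellum and 2.40 (SE 0.88, adjusted p 0.796) in cortex were not called.

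Dusp1, a phosphatase of MAP kinases that glucocorticoids and neuronal activity both induce, was also picked out after its values were seen, and followed another order of animals than the members. Control 2, the lowest animal for 6 members, was the highest control, with 75 CPM in cerebellum and 71.2 CPM in cortex, while control 3 had 23.2 and 20.1 CPM.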
